A study of Mus musculus with 6 samples.

Results

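Fragments from the 3′ side of transfer RNAs (tRNAs) were examined in mature sperm from the cauda epididymis, where sperm are stored. They comprise all 45 rows named as a 3′ end and all 27 rows named as a CCA end in the deposited table of tRNA-derived small RNAs (tsRNAs), 72 of its 124 rows. The other 52 rows are 5′ end fragments and serve as background. All mice were 8-week-old C57BL/6 males. The normal group has 3 samples, and the other 3 are from mice with a depressed state induced by stress, called stress samples here. The sources used here do not describe the stress procedure. The labels do not say whether a sample is 1 mouse or a pool, so the p-values speak only of the spread among these 6 samples, part of which may be technical.

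A tRNA carries an amino acid to the ribosome, and its anticodon, which pairs with the codon, gives each row its name: Glu-CTC is the glutamate tRNA with the anticodon CTC. tRNAs for the same amino acid form an isotype. Nucleases cut tRNAs in or near the anticodon loop, which leaves a 5′ fragment and a 3′ fragment, and cuts in the T arm leave shorter 3′ fragments. The letters CCA at the 3′ end of a tRNA are not written in the mouse tRNA genes; the enzyme TRNT1 adds them after transcription, and the amino acid is attached to them. Sperm are known for abundant 5′ fragments of glycine and glutamate tRNAs, taken up in part from the epididymis. The sources used here do not say how the authors told a 3′ end from a CCA end, and the names were taken as they stand.

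Each column of the table sums to 1000000, so values are reads per 1000000 reads of the table (RPM), a share and not an absolute amount. A lower value cannot be told apart from a higher level of other tsRNAs, nor fewer cells of a type from less RNA per cell. From the step between low values, 1 read was worth an estimated 0.363 to 0.870 RPM, and the table rests on an estimated 1149648 to 2756214 reads per sample. Normal replicate 3 had the fewest estimated tsRNA reads and 2.67 miRNA reads for each of them, against 0.367 to 0.835 in the other 5 samples. As a check of the labelled cell type, the miRNA table held all 5 germ-cell markers (miR-34b, miR-34c and miR-449a to miR-449c), together at 308 to 609 counts per 1000000 miRNA reads (CPM) in normal and 768 to 955 CPM in stress samples. The 5 epithelial markers (miR-200a to miR-200c, miR-141 and miR-429) stood higher, at 12354 to 17474 CPM in normal and 28908 to 31999 CPM in stress samples. All markers of 3 other lists were detected too: stroma, muscle and endothelium (4 markers) at 2659 to 4948 CPM in normal and 9272 to 10835 CPM in stress samples, leukocytes (4 markers) at 359.9 to 811 and 1350.0 to 1887 CPM, and red blood cells (3 markers) at 341 to 1018 and 268 to 817 CPM. No marker was at 0 in every sample, and the part of other cells in the tRNA results was not tested.

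Nearly all tsRNA signal came from 5′ ends. 3′ end and CCA end rows together took 0.125%, 0.0963% and 0.198% of the signal in normal replicates 1 to 3 and 0.188%, 0.211% and 0.118% in stress replicates 1 to 3. The 3′ end rows summed to 840.0, 550.1 and 1063 RPM in the normal replicates and to 1215, 1272 and 796 RPM in the stress replicates. The CCA end rows summed to 412, 413 and 917 RPM and to 669, 833 and 385 RPM. Normal replicate 3 and stress replicate 2 were the highest of their groups in CCA end signal, and the groups overlapped in both classes. In estimated reads, a sample held 1222 to 2906 reads on 3′ ends and 835 to 1600 on CCA ends.

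The 3′ end share of the signal was 0.0818% ± 0.0257 (SD, n = 3) in normal and 0.109% ± 0.0260 in stress samples (p = 0.3 in a two-sided exact permutation test). The CCA end share was 0.0581% ± 0.0291 (SD, n = 3) and 0.0629% ± 0.0226 (p = 1 in the same exact permutation test). Of the 3′ side signal alone, CCA ends made up 40.7% ± 6.95 (SD, n = 3) in normal and 35.9% ± 3.50 in the stress group (p = 0.3 in the exact permutation test). The groups overlapped in all 3 measures, and 3 samples against 3 cannot give a p below 0.1.

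A single row led each class. In the 3′ end class this was Asp-GTC, from the only aspartate tRNA in the table, with 44.0% of the class signal on average and 41.8% to 54.3% in single samples. Asp-GTC 3′ ends stood at 379.8, 298.6 and 450.6 RPM in normal replicates 1 to 3 and at 508.8, 531.5 and 354.5 RPM in stress replicates 1 to 3. In every sample they were above the summed signal of each other isotype in the class. Met-CAT followed, at 118.0, 52.6 and 140.0 RPM in normal and 208.2, 189.1 and 120.1 RPM in stress samples; the table does not separate the initiator methionine tRNA, which starts proteins, from the elongator. Gly-CCC (48.7 to 139.8 RPM over the 6 samples) and Arg-CCG (53.7 to 128 RPM) came next, and their ranges overlap with each other and with Met-CAT. These 4 rows held 77.9% of the 3′ end signal.

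In the CCA class the leader was Glu-TTC, at 120.1, 197.9 and 309.2 RPM in normal and 342.3, 377.3 and 201.4 RPM in stress samples. It held 42.7% of the class signal on average, but between 29.1% and 52.3% in single samples. Glu-CTC came next at 59.3 RPM on average (mean of 6 samples), before Trp-CCA (50.6 RPM, a tryptophan tRNA whose anticodon happens to be CCA), Gly-CCC (50.5 RPM) and Lys-TTT (40.4 RPM). The leading 4 rows held 69.2% of the CCA signal. Trp-CCA CCA ends were uneven within both groups, at 19.6, 22.7 and 104 RPM in normal and 36.5, 102 and 18.7 RPM in stress samples. Normal replicate 3 and stress replicate 2 were again the high ones.

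**Figure D1:**
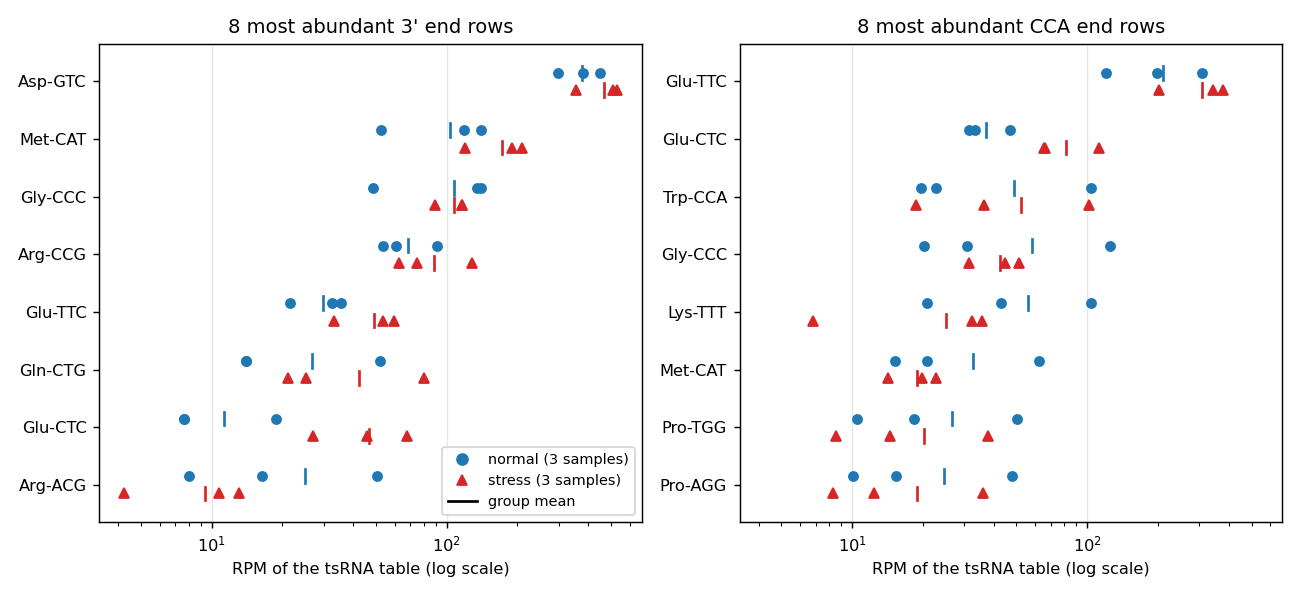
RPM (log scale) of the 8 most abundant 3′ end rows (left) and CCA end rows (right), with 1 point per sample, normal as circles and stress as triangles, and a tick at each group mean. Asp-GTC leads the 3′ ends and Glu-TTC the CCA ends; among these 16 rows only Glu-CTC keeps the groups apart, in both classes.

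Most rows below these were rare. Of the 45 rows of 3′ ends, 3 had a mean of at least 100 RPM, 8 lay between 10 and 100, 14 between 1 and 10, and 20 below 1 RPM, which is about the value of 1 or a few reads. Of the 27 rows of CCA ends the numbers were 1, 9, 10 and 7. In all, 22 rows of 3′ ends and 18 of CCA ends were above 0 in all 6 samples. The lowest of the CCA ends were Asp-GTC (above 0 in 2 samples, mean 0.015 RPM) and, each listed in 1 sample, SeC-TCA (selenocysteine) and Leu-TAA. His-GTG CCA ends were listed in stress replicate 3 alone, at 0.990 RPM. None of the 45 rows of 3′ ends is from histidine, whose 5′ end is among the abundant tsRNAs of these samples.

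The isotypes ranked differently in the 2 classes. By summed signal, 3′ ends went Asp (421 RPM, mean of 6 samples), Met (138 RPM), Gly (125.5 RPM), Arg (106 RPM), Glu (68.4 RPM), Gln (35.3 RPM), Val (14.4 RPM) and Trp (13.3 RPM). CCA ends went Glu (317 RPM), Gly (69.0 RPM), Pro (55.9 RPM), Trp (50.6 RPM), Lys (49.0 RPM), Met (25.8 RPM) and Ser (19.6 RPM). None of the 27 CCA end rows is from arginine or glutamine, and Pro, at rank 3 among CCA ends, had 1.52 RPM of 3′ ends. From Gly to Lys in the CCA order the sample ranges overlap, so that order is not fixed beyond the spread. Across the 14 isotypes with rows in both classes, the mean levels had a Spearman rho of 0.086. Across the 24 anticodons with rows in both classes it was higher, at 0.42. Both are given as a description of points that share 6 libraries.

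By anticodon, 24 tRNAs had a row in both classes, 21 a 3′ end only and 3 a CCA end only (His-GTG, SeC-TCA and Ser-CGA). The CCA end was above the 3′ end in all 6 samples for 10 of the 24: Glu-TTC, Trp-CCA, Lys-CTT, Ala-AGC, the 3 proline tRNAs, and Ser-AGA, Ser-GCT and Ser-TGA. It was below in all 6 samples for 5: Asp-GTC, Met-CAT, Gly-CCC, Ala-TGC and Val-CAC. The 2 alanine tRNAs thus lay on opposite sides, with Ala-AGC at a mean of 0.049 RPM of 3′ ends and 5.39 RPM of CCA ends, and Ala-TGC at 4.77 and 1.42 RPM. Aspartate was the most one-sided, with 421 RPM of 3′ ends against 0.015 RPM of CCA ends.

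Neither class followed the 5′ order as a whole, though Glu and Gly led the CCA ends as they led the 5′ ends. The 5′ order was led by Glu (643105 RPM, mean of 6 samples), Gly (315830 RPM), Val (15949 RPM), Ala (6228 RPM) and His (5706 RPM). Among 3′ ends, Glu ranked 5, Gly 3, Val 7 and Ala 11 of 19 isotypes. Among CCA ends, Glu ranked 1, Gly 2, Ala 8, Val 12 and His 13 of 16. Spearman's rho against the 5′ order was 0.27 for the 3′ ends (19 isotypes) and 0.27 for the CCA ends (16 isotypes). Within a class, pairs of samples had a rho of 0.70 to 0.88 for 3′ ends, 0.83 to 0.97 for CCA ends and 0.96 to 0.99 for 5′ ends. These values are over rows and not isotype sums, so they cannot be set directly against those between classes.

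For 4 isotypes the 3′ side exceeded the 5′ side in all 6 samples. The sum of 3′ and CCA ends was 2.44 times the 5′ end signal for Asp (2.11 to 3.78 times in single samples), 5.74 times for Arg (3.05 to 9.39), 8.33 times for Met (5.44 to 10.2) and 30.0 times for Trp (8.17 to 140.5). Tryptophan's ratio has a 5′ signal of only 2.13 RPM below it, a few reads per sample. At the other end, the 3′ side of His, a CCA end listed in 1 sample, was 0.00289% of its 5′ signal. The 3′ side of Glu was 0.0600% of its 5′ signal (0.0307% to 0.0918%), that of Gly 0.0616% (0.0346% to 0.101%) and that of Val 0.0920% (0.0639% to 0.121%). Lysine and proline lay between, at 1.85% and 2.64%.

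**Figure D2:**
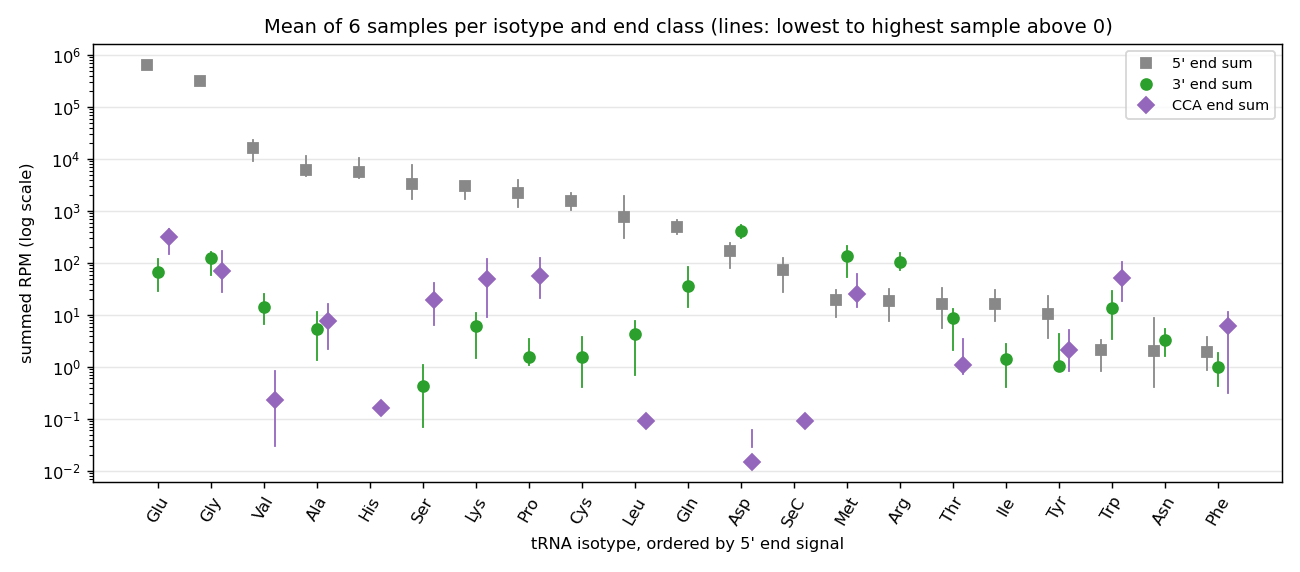
Summed RPM (log scale) of 5′ end rows (squares), 3′ end rows (circles) and CCA end rows (diamonds) for 21 isotypes, ordered by 5′ signal. Markers are means of 6 samples, zeros included, and lines run from the lowest to the highest sample above 0; the 3′ side exceeded the 5′ side in all 6 samples for Asp, Met, Arg and Trp, and in the means alone also for Phe and Asn.

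Rows of the same isotype are not always separate measurements. CCA ends of Pro-AGG were 2.0 times those of Pro-CGG in each of the 6 samples, and Pro-TGG was 1.02 to 1.20 times Pro-AGG. The 3′ ends of Pro-AGG and Pro-CGG kept a ratio of 2.0 to 2.02 in the 4 samples that listed them. RefSeq (GRCm38.p6) names 6 genes for Pro-AGG, 3 for Pro-CGG and 7 for Pro-TGG. Values below that of 1 read also occur, as when 1 read is split over several rows. The 3 proline rows are therefore read here as nearly 1 signal, while the sources used here do not say how the authors divided reads. The 3′ ends of Val-CAC also stayed close to those of Val-AAC, at 1 to 1.44 times in the 6 samples, on a few estimated reads each. Some other pairs varied more. CCA ends of Glu-TTC were 3.04 to 6.58 times those of Glu-CTC, and those of Lys-TTT 1.78 to 9.44 times those of Lys-CTT. The number of named genes per anticodon had a Spearman rho of 0.38 with the 3′ end level (45 anticodons). It was 0.027 with the CCA end level (26 anticodons) and 0.40 with the level of the 5′ end background (46 anticodons).

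Stress and normal samples were then compared row by row with limma on log2(RPM + 1), fitted over all rows that reached 1 RPM in 3 or more samples, with a Benjamini-Hochberg threshold of 0.05. Of the 72 rows, 43 passed this filter, 24 of 3′ ends and 19 of CCA ends; 30 of the 43 were at or above 1 RPM in every sample, and 0 reached it in 1 group alone. The other 29 rows, 21 of 3′ ends and 8 of CCA ends, were not tested; among them Leu-AAG 3′ ends were listed at 0 in all normal samples and at 0.941, 1.03 and 0.363 RPM in stress samples, an estimated 1 to 2.3 reads. No row passed the test, neither among the members (0 of 43) nor in the whole table (0 of 87, percent called 0). At an unadjusted p under 0.05 there were 4 of 43 members against 8 of 87 rows (9.2%) in the table. They were 3 higher 3′ ends, against 5 rows of the table (5.75%), and 1 lower CCA end, against 3 rows (3.45%). The groups did not overlap for 5 members against 7 of 87 rows (8.05%). In 4 of the 5 every stress sample was above every normal sample, against 6 rows of the table (6.9%), and in 1 below, which is also the only such row of the table (1.15%). The 95% interval of a member's log2 fold change reached a median of 1.36 to either side. In every limma fit here, the SE, interval and p-value draw on the spread of all rows fitted together. They do not measure the spread of a row alone.

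The 2 classes leaned to different sides without calls. Of the 24 tested 3′ ends, 21 had a positive log2 fold change (stress minus normal) and 3 a negative one, with a median of 0.57. Of the 19 tested CCA ends, 6 were positive and 13 negative, with a median of −0.17. Over all 87 tested rows the median was 0.07, with 46 positive and 41 negative. The rows share samples and a common total, and some may split the same reads. The 3 proline CCA ends, all counted as negative, are nearly 1 signal. These counts are therefore a description.

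Glu-CTC was 1 of the 3 tested 3′ ends whose groups did not overlap. Glu-CTC 3′ ends stood at 7.61, 7.59 and 18.8 RPM in normal replicates 1 to 3 and at 45.6, 67.9 and 27.01 RPM in stress replicates 1 to 3. All 3 stress samples were above all normal samples, with normal replicate 3 nearest to stress replicate 3. The log2 fold change was 1.98 ± 0.74 (SE, n = 3 per group), which missed the threshold in limma (adjusted p = 0.26, with 0.0047 to 0.79 over the alternatives). Without normal replicate 3 it was 2.38 and passed (limma adjusted p = 0.0047). CCA ends of the same tRNA stood at 31.5, 33.3 and 47.0 RPM in normal and 111.9, 65.7 and 66.3 RPM in stress samples, again without overlap (1.08 ± 0.72, limma adjusted p = 0.54). The 5′ end of Glu-CTC, the most abundant row of the table, was at −0.02 ± 0.05. That row held 54.6% to 60.5% of the 5′ end signal in single samples, and the table total is fixed. Its value therefore cannot show whether the amount of this 5′ end changed.

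The other glutamate tRNA gave smaller differences with overlap. Glu-TTC CCA ends, the leading CCA row, had a log2 fold change of 0.60 ± 0.62 (SE, n = 3 per group), and Glu-TTC 3′ ends one of 0.68 ± 0.73. Summed over both anticodons, glutamate 3′ ends were 41.1 ± 11.2 RPM (SD, n = 3) in normal and 95.7 ± 31.8 RPM in stress samples without overlap (1.18 ± 0.71 SE, limma adjusted p = 0.52).

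Threonine and lysine had the other separated 3′ ends, both rare. Thr-AGT stood at 4.82, 1.71 and 1.52 RPM in normal and at 11.3, 11.1 and 10.8 RPM in stress samples. That is an estimated 9.8, 4 and 1.8 reads against 27, 20.3 and 29.8 reads. Its log2 fold change was 1.82 ± 0.69 (SE, n = 3 per group; limma adjusted p = 0.26). Lys-TTT stood at 1.48, 1.71 and 3.48 RPM in normal and at 7.53, 6.15 and 7.26 RPM in stress samples (1.35 ± 0.68 SE, limma adjusted p = 0.48). All 3 stress samples were above all normal samples for both rows.

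Lys-CTT and Leu-CAA 3′ ends had the next smallest p-values, with overlap, at 1.18 ± 0.62 and 1.14 ± 0.62 (SE, n = 3 per group; limma adjusted p = 0.48 for both). Each was at 0 in at least 1 normal sample. The 3 tested 3′ ends with a negative value were Arg-ACG (−1.07 ± 0.73, with normal replicate 3 at 50.5 RPM and the other samples between 4.23 and 16.3 RPM), Gly-ACC (−0.15 ± 0.61) and Thr-TGT (−0.04 ± 0.62).

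The abundant 3′ ends did not pass, and their limma intervals were wide. Asp-GTC had a mean of 376 ± 76.1 RPM (SD, n = 3) in normal and 465 ± 96.3 RPM in stress samples. Its log2 fold change was 0.30 with a 95% interval from −0.81 to 1.41. When limma was run without its trend of spread with level, the SE was 0.36 in place of 0.56 (limma adjusted p = 0.68). Met-CAT was at 0.81 ± 0.68 (SE, n = 3 per group), Gln-CTG at 0.66 ± 0.74, Arg-CCG at 0.33 ± 0.71 and Gly-CCC at 0.13 ± 0.69. The 3 valine rows were at 0.42 to 0.89 and Trp-CCA at 0.67, all with overlapping groups.

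Among CCA ends the most negative fold changes were those of Lys-CTT, Phe-GAA and Lys-TTT. Lys-CTT CCA ends stood at 17.8, 10.7 and 11.7 RPM in normal and at 3.76, 5.48 and 2.18 RPM in stress samples, with every stress sample below every normal sample. The log2 fold change was −1.61 ± 0.70 (SE, n = 3 per group; limma adjusted p = 0.33). Lys-TTT CCA ends stood at 103.7, 42.9 and 20.9 RPM in normal and at 35.5, 32.5 and 6.84 RPM in stress samples, with overlap (−1.13 ± 0.74, limma adjusted p = 0.54). Phe-GAA CCA ends were at 11.4, 5.88 and 7.14 RPM in normal and 3.03, 9.03 and 0.319 RPM in stress samples (−1.23 ± 0.69, limma adjusted p = 0.49).

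The remaining CCA ends lay closer to 0 and overlapped. Met-CAT was at −0.53 ± 0.74 (SE, n = 3 per group), Ser-GCT at −0.48 ± 0.70, Ala-AGC at −0.14 ± 0.68 and Gly-CCC at −0.04 ± 0.73. The 3 proline rows were at −0.34 to −0.30. On the positive side were Ala-TGC (1.001 ± 0.62), Tyr-GTA (0.44 ± 0.63), Ser-AGA (0.38 ± 0.67) and Trp-CCA (0.19 ± 0.73). Normal replicate 3 was the highest of the 6 samples for several of these rows, for example Met-CAT at 62.3 RPM against 14.2 to 22.8 RPM, and Gly-CCC at 125 RPM against 20.2 to 51.4 RPM.

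**Figure D3:**
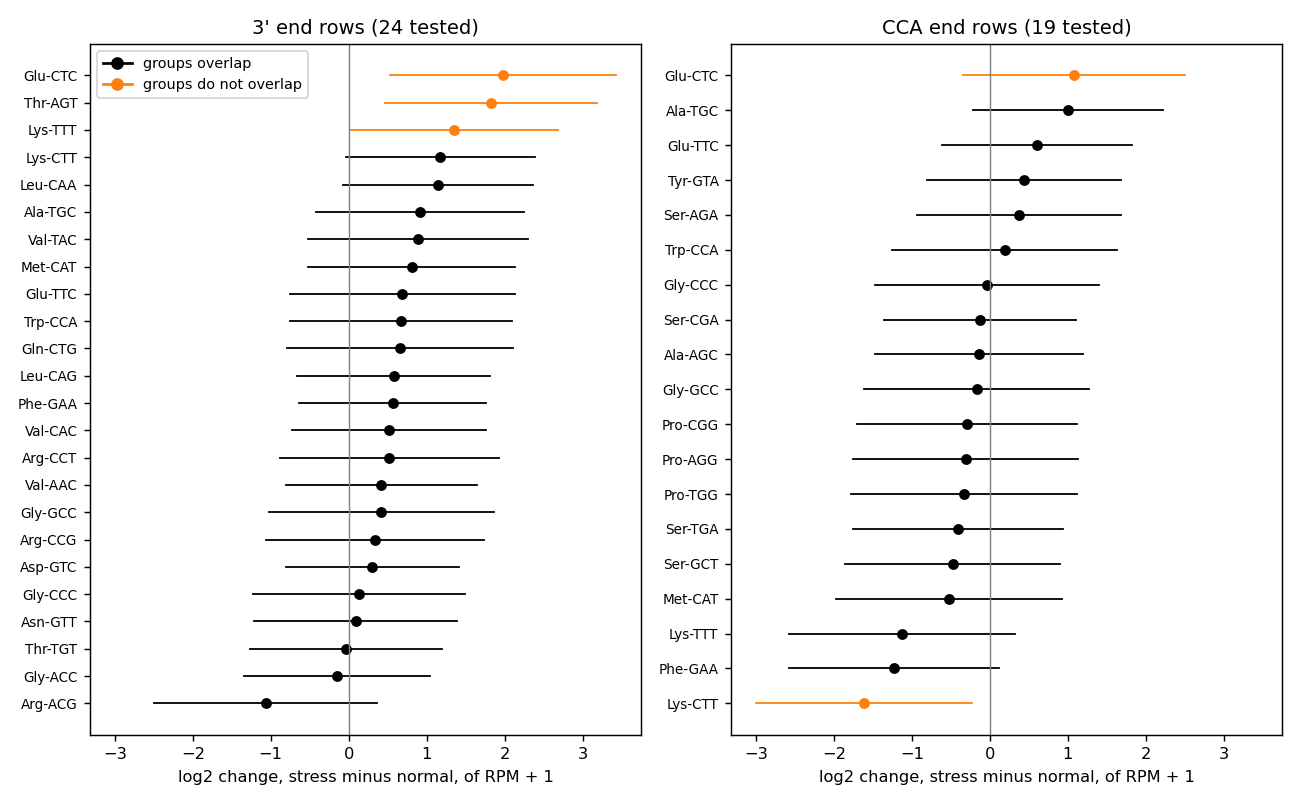
Log2 fold change (stress minus normal, on RPM + 1) with its 95% interval for the 24 tested 3′ end rows (left) and 19 tested CCA end rows (right). Orange marks the 5 rows whose groups do not overlap; the 3′ ends lie mostly to the right of 0 and the CCA ends on both sides.

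Grouped by isotype, the 5 isotypes known for abundant 5′ fragments in sperm (Gly, Glu, Val, His and Lys) had 10 tested 3′ ends, 9 positive and 1 negative with a median of 0.60, and 6 tested CCA ends, 2 positive and 4 negative with a median of −0.11; none passed. Serine and leucine, whose tRNAs have a long variable arm, had 2 tested 3′ ends (both leucine, median 0.86) and 4 tested CCA ends (all serine, median −0.27); none passed. Selenocysteine had no tested row, and the names mark no mitochondrial tRNA. Fitted as sums per isotype and end class, 0 of 46 sums passed in limma (percent called 0), 3 had an unadjusted p under 0.05 (6.52%), and 5 did not overlap (10.9%), of which 4 were 3′ end sums. These were Glu, Thr (4.59 ± 2.21 RPM, SD, n = 3, in normal and 12.9 ± 0.232 RPM in stress samples), Lys (2.81 ± 1.15 and 9.29 ± 1.55 RPM) and Leu (2.51 ± 1.65 and 5.98 ± 1.73 RPM).

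With each sample rescaled to its summed 3′ and CCA signal and the 3′ side rows fitted alone (46 rows, without the 5′ ends), limma called 5 members instead of 0. The scaling and the set of rows fitted both changed here, and their parts were not told apart. Thr-AGT (1.55) and Glu-CTC (1.68) 3′ ends were higher, and Lys-CTT (−1.92), Phe-GAA (−1.59) and Lys-TTT (−1.46) CCA ends were lower, with adjusted p from 0.022 to 0.039. This alternative moved the median log2 fold change of the tested members from 0.38 to 0.09, and made the 3′ ends of Asp-GTC and Gly-CCC and the CCA end of Trp-CCA slightly negative (−0.02, −0.19 and −0.12). The CCA end sum of lysine passed there as well (−1.61, limma adjusted p = 0.029). Centring each sample on the median of the 87 tested rows left the count at 0.

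The ratio of CCA end to 3′ end signal within a sample does not depend on the scaling of the table beyond the pseudocount. It was tested for the 8 isotypes with both classes above the filter, as the log2 of (CCA end + 1 RPM) over (3′ end + 1 RPM). In limma 3 of 8 isotypes passed, all lower in stress samples (37.5% called); all 8 point estimates were negative, with a median of −0.48. These 8 are all the isotypes that passed the filter, so the percentage has no wider background at this setting. With no filter on low values, 14 isotypes were tested and 0 passed.

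The lysine ratio fell. Lysine CCA ends summed to 121, 53.6 and 32.6 RPM in normal and to 39.3, 38.0 and 9.02 RPM in stress samples. Lysine 3′ ends summed to 1.48, 3.47 and 3.48 RPM in normal and to 11.1, 8.34 and 8.45 RPM in stress samples, an estimated 3, 8 and 4 against 27, 15 and 23 reads. The log2 ratio was 5.63, 3.61 and 2.91 in normal and 1.74, 2.06 and 0.08 in stress samples, without overlap. Its mean went from 4.05 ± 1.41 (SD, n = 3) to 1.29 ± 1.06, a change of −2.75 ± 0.79 (SE, limma adjusted p = 0.026). This call was lost without normal replicate 1 (−1.96, limma adjusted p = 0.056) or stress replicate 3 (−2.15, adjusted p = 0.16), with a pseudocount of 10 RPM (−1.59, adjusted p = 0.077) and with no filter, where 14 isotypes were tested (adjusted p = 0.080); over all alternatives its adjusted p lay between 0.0031 and 0.16.

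The methionine and phenylalanine ratios passed narrowly. The log2 ratio of methionine was −2.45, −1.72 and −1.16 in normal and −3.33, −3.00 and −3.00 in stress samples, without overlap (−1.33 ± 0.49 SE, limma adjusted p = 0.049). That of phenylalanine was 3.12, 2.78 and 1.69 in normal and 0.51, 2.0 and −0.31 in stress samples, with overlap (−1.80 ± 0.68, limma adjusted p = 0.049). Phenylalanine 3′ ends were 0 to 4 estimated reads per sample. Over the alternatives the adjusted p lay between 0.0077 and 0.31 for methionine and between 0.041 and 0.46 for phenylalanine. The methionine call was lost without any 1 of the samples except normal replicate 1, where it was −1.67 (limma adjusted p = 0.0077) and otherwise −1.39 to −1.02. The phenylalanine call was lost in each of the 3 such runs in which it was tested, at −1.67 to −1.27.

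The ratios of the other 5 isotypes did not pass. Their differences were −0.48 ± 0.61 (SE) for Trp, −0.48 ± 0.61 for Glu, −0.44 ± 0.53 for Ala, −0.27 ± 0.82 for Pro and −0.24 ± 0.63 for Gly (limma adjusted p = 0.60 to 0.75). For glycine, normal replicate 1 lay apart at −2.49, against −0.34 and 0.12 in the other normal samples; without it the difference was −1.03 and passed (limma adjusted p = 0.034, and 0.034 to 0.95 over the alternatives).

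**Figure D4:**
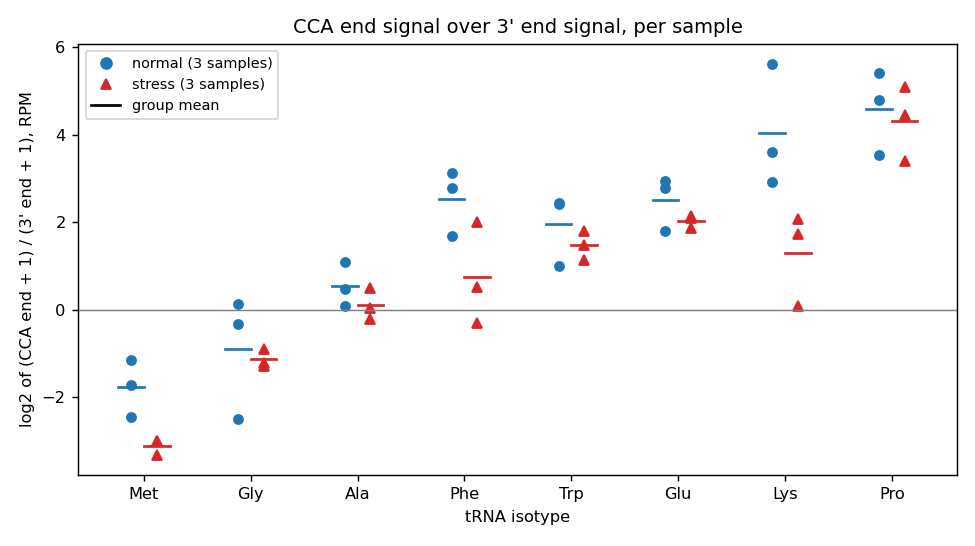
Log2 ratio of CCA end to 3′ end signal (1 RPM added to each) for the 8 tested isotypes, ordered by their mean, with 1 point per sample and a bar at each group mean. The 3 stress samples lie below all normal samples for Lys and Met, and the groups overlap for the other 6 isotypes.

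The 3′ side (3′ plus CCA ends) was also set against the 5′ side of the same isotype. Of 17 isotypes, 0 passed in limma (percent called 0), and 2 had an unadjusted p under 0.05 (11.8%). They were leucine, with higher values in stress samples (5.88%; 1.98 ± 0.63 SE, limma adjusted p = 0.18), and phenylalanine, with lower ones (5.88%; −1.55 ± 0.56, limma adjusted p = 0.18), each without overlap. Leucine passed without normal replicate 2 (2.66, limma adjusted p = 0.012). Both ratios rest on few reads. Leucine 3′ ends were an estimated 8, 7 and 1 reads in normal and 15, 14 and 12 in stress samples. Leucine 5′ ends summed to 1921 RPM in normal replicate 1 and to 299 to 759 RPM in the other samples. Phenylalanine 5′ ends summed to only 0.864 to 3.84 RPM per sample. The log2 ratio differed by 0.78 ± 0.42 (SE) for glutamate and −1.21 ± 0.64 for lysine, both with overlap.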

How the data were processed

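Small RNA libraries of 6 sperm samples (3 normal, 3 stress) were analysed, grouped by the disease-state labels. TRIzol extraction and an Illumina TruSeq library kit are named per the labels' protocols, and Bowtie per the submitters' processing notes, without its version. Genome build, annotation, read filters and counting rule were not found in the sources read. The authors deposited tsRNA values in RPM of the tsRNA table and miRNA values as estimated counts, used here only as CPM of their total for the marker check. The piRNA table was not used.

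Whole reads could not be recovered for most tsRNA values. The value of 1 read was estimated as the largest value below 1 RPM of which at least 25 values under 200 RPM were whole multiples within 0.001 (26 to 31 of 75 to 93 low values per sample), so depths are estimates and no count model was fitted.

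Tests were two-sided: limma 3.58.1 (trend) in R 4.3.3 on log2(RPM + 1), a scale that understates changes of low rows, and exact permutation tests for shares. The fit was also run on simulated data with the same spread for every row. That checks the code alone and does not show how the fit performs on these data. tRNA genes were counted by name in RefSeq (GRCm38.p6), where 47 of 53 anticodons matched. Rows were named by a rule: the 5 smallest p-values by direction and class, the 8 most abundant per class, and the top row per isotype and class. Other rows named were chosen after their values were seen. The members and lists were chosen with earlier results of these data known. No tRNA sequences were used.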

Additional observations from a re-analysis of the deposited data

How the results depend on the processing

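Of 712 alternative values, 636 were labelled as unchanged. For a single result this means the same direction and side of the threshold. A count of calls was labelled unchanged if it stayed at 0 or close in size, even where other items were called. For example, the 2 CCA ratios called without normal replicate 1 were glycine and methionine, with lysine and phenylalanine lost. The members called stayed at 0 in 12 of 14 alternatives; scaled to the summed 3′ and CCA signal and fitted without the 5′ ends they were 5, with 1 isotype sum called. The CCA to 3′ end ratio was called for 3 isotypes, and for 0 with a pseudocount of 10 RPM, 0 with no filter, 0 with a filter of 10 RPM (lysine then not tested) and 1 with the replicate block. Same-numbered samples deviated with correlations of 0.19, −0.36 and −0.23. These gave no sign that the numbers pair the samples, but 3 such values cannot settle it. With the block 0 rows, 0 sums and 0 of the 3′ to 5′ ratios were called, and lysine alone among the CCA ratios (limma adjusted p = 0.022). Leaving out 1 sample gave 0 to 2 rows, 0 to 1 members, 0 to 1 sums, 0 to 2 CCA ratios and 0 to 1 of the 3′ to 5′ ratios called. In each run with 5 samples a group has only 2.

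The CCA end share of the signal differed by 0.00484 percentage points, by −0.00495 without Glu-TTC, and by −0.00536 to 0.0216 with 1 sample left out. Log2 changes turned sign for Thr-TGT 3′ ends at a pseudocount of 0.1 RPM (0.083), and with scaling to the 3′ and CCA signal for 3′ ends of Asp-GTC (−0.022) and Gly-CCC (−0.19) and CCA ends of Trp-CCA (−0.12). With 1 sample left out they spanned 0 for 3′ ends of Thr-TGT (−0.40 to 0.44), Gly-CCC (−0.37 to 0.38) and Gly-ACC (−0.45 to 0.095). They did so for CCA ends of Tyr-GTA (−0.15 to 1.17), Ser-AGA (−0.16 to 1.38), Met-CAT (−0.92 to 0.058), Ser-GCT (−0.91 to 0.034), Trp-CCA (−0.45 to 0.94), Gly-CCC (−0.57 to 0.72), Pro-TGG (−0.90 to 0.26), Pro-AGG (−0.89 to 0.31) and Ala-AGC (−0.66 to 0.58), and for the ratios of Gly (−1.03 to 0.27) and Pro (−0.79 to 0.19). The cause was not tested. For 10 of these 14 results an end of the range came without normal replicate 3. That sample had the fewest estimated tsRNA reads in all. On CCA ends it held an estimated 1054 reads, against 835 and 965 in normal replicates 1 and 2. A row near 1 RPM rests on a few reads.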
